A study of Rattus norvegicus with 16 samples.

Results

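Chemokines are small secreted proteins that direct the movement of white blood cells, and their receptors are G protein-coupled receptors on the cells that respond. The genes of both families were followed in 4 tissues around a rat bone defect. Members were taken by symbol: rows of the count table named Ccl, Cxcl, Ccr or Cxcr with a number, with Cx3cl1, Cx3cr1, Xcl1, Xcr1 and the atypical receptors Ackr1 to Ackr4 where the table held them. The rule found 53 of the table's 14476 genes, 34 ligands and 19 receptors. Of these, 49 passed the filter on low counts and were tested, among 12857 genes in all. The 4 that did not were the ligands Ccl1 (at most 9 counts in a library), Ccl25 (at most 16), Ccl26 (at most 1) and Ccl28 (at most 7). The atypical receptor ACKR3 appears in the table under its older symbol Cxcr7. Ackr1, Ackr4, Ccr2 and Ccr8 were not analysed here, so the receptor that pairs with Ccl2 has no value below.

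Each of 4 Sprague-Dawley rats had an osteotomy, a surgical cut through bone, stabilized with a plate on both sides, and tissue was taken after 4 weeks. One side received a spacer of polymethyl methacrylate (PMMA) bone cement, around which a sheath called the induced membrane forms in the Masquelet treatment, and the other side was left empty. The spacer side gave the induced membrane (IM) and the bone next to the cement (PMMA bone). The empty side gave the tissue that filled the osteotomy (PFNU) and the bone next to it (BNED), with 1 RNA-seq library per rat in each of these 4 groups. All groups come from operated and plated limbs of the same 4 animals, no unoperated bone is among them, and the labels give no age or sex.

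Chemokines with a CXC motif and an ELR sequence, such as Cxcl1, Cxcl2 and Cxcl3, bind Cxcr2 and attract neutrophils. Cxcl9, Cxcl10 and Cxcl11 are induced by interferon and bind Cxcr3 on activated T cells, while Ccl2, Ccl7 and Ccl12 attract monocytes. Cxcl12 is made by marrow stroma and holds Cxcr4-bearing blood precursors in the marrow, and Cxcr7 and Ackr2 take up chemokines without conventional signalling. After a bone injury such signals bring in the white blood cells that clear debris before repair.

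Libraries held 40472228 to 76815879 counts. Markers of other cells differed between the tissues, and their part in the results below was not tested. Over 9 osteoblast and osteocyte markers, all in the table, the summed share of counts reached 1.03% in PMMA bone, 0.803% in BNED, 0.290% in IM and 0.252% in PFNU, and the lowest BNED library (0.287%) lay just under the highest membrane. Of 16 neutrophil markers 15 were in the table, and together they took 0.158 to 0.244% of counts in BNED, 0.0294 to 0.0733% in PMMA bone, 0.00480 to 0.0119% in PFNU and 0.00184 to 0.00469% in IM. Erythroid genes (9 of 11 in the table) took 4.08 to 7.12% in BNED. In PMMA bone they took 7.70% in rat 1, which by this share stands with the empty side, and 0.430 to 1.31% in the others. Endothelial markers of that library (0.0945%) also lay within the BNED range (0.0824 to 0.107%). Its neutrophil (0.0733%) and mast cell and eosinophil markers (0.0677%, against 0.118 to 0.125% in BNED) lay below all BNED libraries. Skeletal muscle genes (11 of 13) took 2.05 to 18.3% in IM and 5.64 to 13.7% in PFNU. In bulk tissue, fewer cells of a type and less RNA per cell cannot be told apart.

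**Figure D1:**
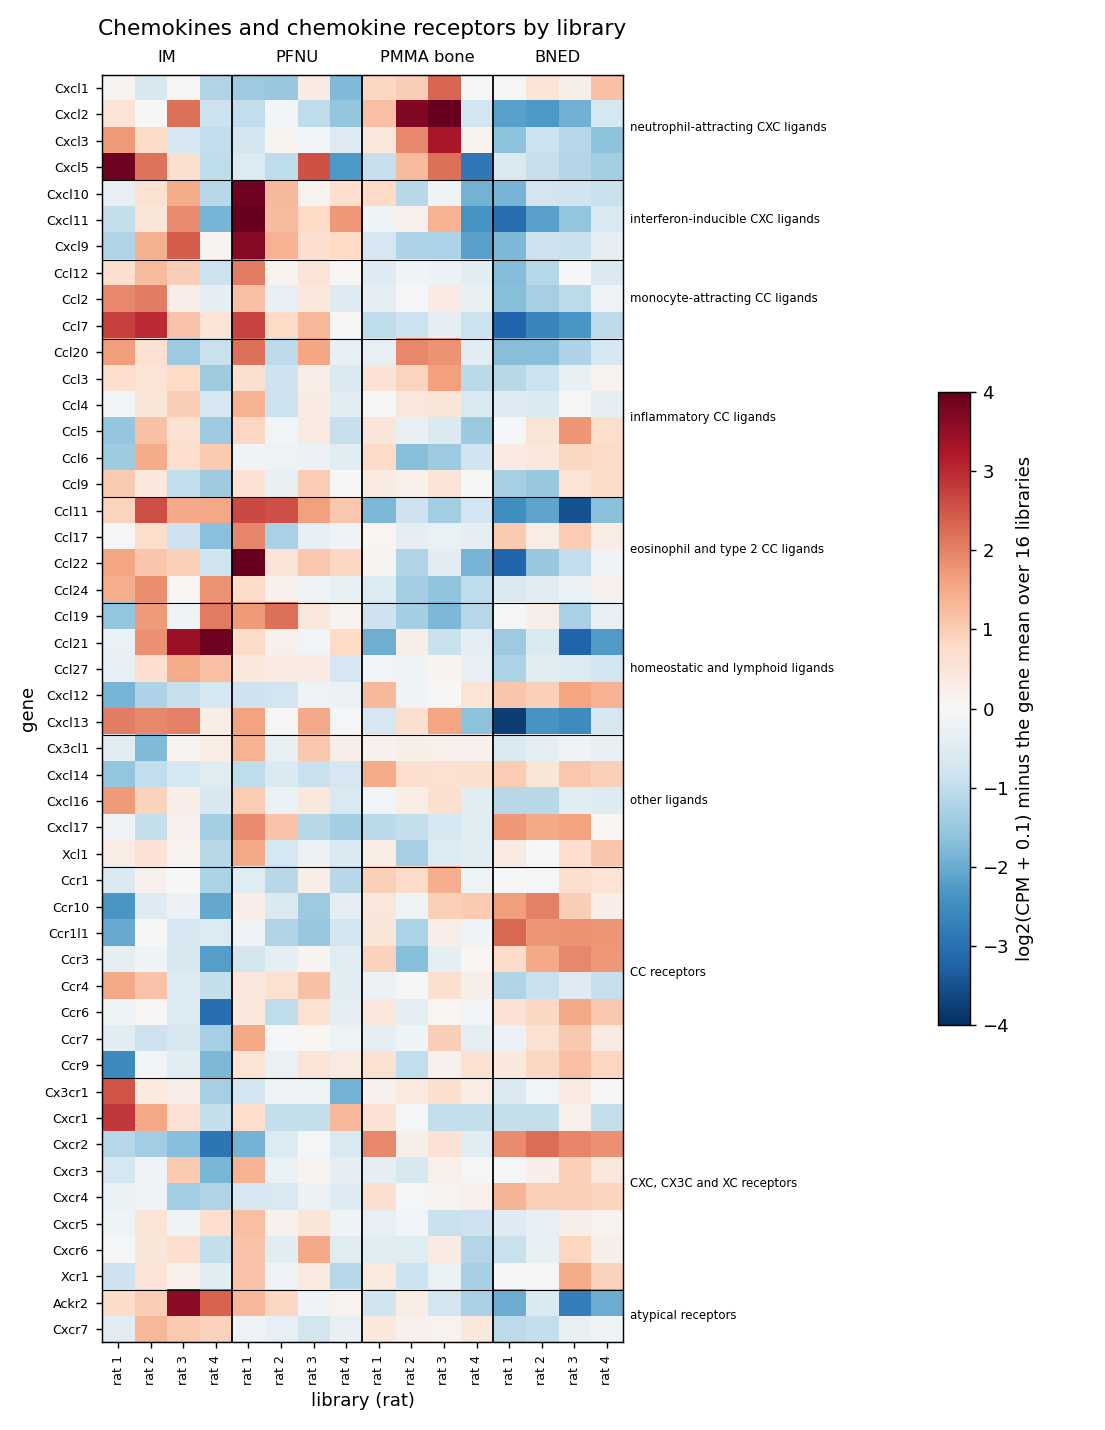
Heat map of 48 tested chemokine and receptor genes (rows, by role) in 16 libraries (columns, by group and rat). Colour gives log2(CPM + 0.1), where CPM is the count scaled to library size, minus the gene's mean over the libraries. Cxcl2 is highest in the PMMA bone of rats 2 and 3 (10.8 and 20.7 CPM), Cxcl9, Cxcl10 and Cxcl11 in the PFNU of rat 1, and Ccl21 in the membranes of rats 3 and 4.

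The DNA just before the start sites of 4 ligands is shown first: Cxcl2, Cxcl10 and Cxcl11, which are called below, and Cxcl1, a neighbour of Cxcl2 that is not called. Sequences are RefSeq's of build GRCr8, which is not the build of the counts: the 250 bases before each gene's start, 5′ to 3′ on the gene's strand. Capitals mark matches, on either strand, to the NF-kappaB consensus, the binding motif of a factor active in inflammation, to GAAA, any 2 bases and GAAA, the core of the interferon-stimulated response element, and to TTC, any 3 bases and GAA, the core of the interferon-gamma activated site. Cxcl2 lies at chr14:17467256-17467505 (minus strand), Cxcl1 at chr14:17479322-17479571 (minus strand), Cxcl10 at chr14:15988816-15989065 (plus strand) and Cxcl11 at chr14:15973478-15973727 (plus strand).
Cxcl2: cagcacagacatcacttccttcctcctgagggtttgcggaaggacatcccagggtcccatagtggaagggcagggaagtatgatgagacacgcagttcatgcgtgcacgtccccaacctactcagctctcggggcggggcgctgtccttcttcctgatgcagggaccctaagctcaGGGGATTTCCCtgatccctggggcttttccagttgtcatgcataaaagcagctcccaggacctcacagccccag
Cxcl1: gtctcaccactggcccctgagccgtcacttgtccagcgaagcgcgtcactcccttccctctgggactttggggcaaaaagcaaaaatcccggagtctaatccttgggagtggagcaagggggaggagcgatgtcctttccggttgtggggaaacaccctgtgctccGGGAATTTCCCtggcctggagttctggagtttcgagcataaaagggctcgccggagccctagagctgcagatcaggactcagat
Cxcl10: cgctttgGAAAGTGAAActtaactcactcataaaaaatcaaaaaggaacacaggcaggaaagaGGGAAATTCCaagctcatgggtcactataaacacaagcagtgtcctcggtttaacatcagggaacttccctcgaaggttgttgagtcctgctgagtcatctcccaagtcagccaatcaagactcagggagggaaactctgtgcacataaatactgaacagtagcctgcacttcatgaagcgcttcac
Cxcl11: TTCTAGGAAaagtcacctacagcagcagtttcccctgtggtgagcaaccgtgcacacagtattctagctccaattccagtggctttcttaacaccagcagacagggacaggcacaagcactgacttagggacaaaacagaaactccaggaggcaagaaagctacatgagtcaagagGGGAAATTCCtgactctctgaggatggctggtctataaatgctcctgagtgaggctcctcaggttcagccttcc
In each of Cxcl2 and Cxcl1 the capitals hold a pair of overlapping NF-kappaB matches, at -74 and -73 and at -84 and -83 from the start. Cxcl10 held an NF-kappaB match at -187 and the interferon response core at -243. Cxcl11 held an NF-kappaB match at -74 and the interferon-gamma core at -250. Promoter windows were matched for 41 of the 53 members, and 8 of them (19.5%) held the NF-kappaB consensus, against 3.54% of 33469 windows of the same length. The 8 were Cxcl1, Cxcl2, Cxcl5 (Cxcl6 in RefSeq), Cxcl10, Cxcl11, Ccl9, Ccl20 and Ccr3. The interferon response core was in 2 of the 41 (4.88%, against 3.41% of all windows) and the interferon-gamma core in 4 (9.76%, against 7.67%). Cxcl9, called below as well, had a window with none of these motifs. The same held for Ccl7, Ccl12, Ccl21, Ccl22, Cx3cl1, Cxcl12, Cxcl13, Cxcl14, Ackr2, Ccr1, Ccr1l1, Cxcr2 and Cxcr4, also called below. A match describes these letters only.

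PMMA bone was set against BNED to ask how chemokine genes of neighbouring bone differ when the defect holds a spacer. Of the 49 tested members 2 rose and none fell, beside 4.91% of all genes called (3.51% higher and 1.4% lower). A gene is called here at an adjusted p under 0.05 over all genes. Both were ligands that attract neutrophils, Cxcl2 and Cxcl3. By DESeq2 4 members rose and 3 fell, beside 1546 of all genes called. In edgeR 17 members had an unadjusted p under 0.05, beside 24.3% of all genes.

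Cxcl2 was at 1.82, 10.8, 20.7 and 0.396 CPM (counts scaled to library size) in the PMMA bone of rats 1 to 4 and at 0.0865, 0.0704, 0.121 and 0.415 CPM in the BNED of the same rats. Rats 2 and 3 were far above all others, rat 1 was in between, and rat 4 had slightly less on the spacer side, so the groups overlapped. The log2 fold change was 5.64 (SE 1.15, adjusted p = 0.0230). Cxcl3 was at 0.327, 1.09, 2.91 and 0.241 CPM in PMMA bone, from 14, 64, 193 and 17 counts, and at 0, 0.0704, 0.0404 and 0 CPM in BNED, from 0, 6, 2 and 0 counts. Every PMMA bone library was above every BNED library, and rats 2 and 3 again were highest (log2 fold change 5.11, SE 1.14, adjusted p = 0.0285). Both calls were lost when some single libraries were left out, though the values stayed at 4.68 to 6.04 (Cxcl2) and 4.07 to 5.45 (Cxcl3) in those fits. Without the PMMA bone of rats 2, 3 or 4, Cxcl2 had adjusted p = 0.0900, 0.0840 and 0.0512 and Cxcl3 0.0970, 0.102 and 0.0520. Without the BNED of rats 1 or 3 they had 0.108 and 0.0706 (Cxcl2) and 0.113 and 0.0745 (Cxcl3), and Cxcl3 had 0.0521 without the BNED of rat 4. In the fits without the PMMA bone of rats 2, 3 or 4 or the BNED of rats 1 or 3, edgeR called 0 genes of the whole table, so the loss is not particular to these ligands. Limma-voom did not call Cxcl2 (adjusted p = 0.0891).

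The other ELR ligands of the same gene cluster did not pass. Cxcl1 was at 2.92, 3.21, 8.38 and 1.5 CPM in PMMA bone and 1.63, 2.37, 1.90 and 3.7 CPM in BNED (log2 fold change 0.74, SE 0.58, adjusted p = 0.450). Its highest library was also the PMMA bone of rat 3. Cxcl5 was at 0.280, 1.65, 3.21 and 0 CPM against 0.381, 0.282, 0.222 and 0.175 CPM (log2 fold change 2.26, SE 1.39, adjusted p = 0.335), with rats 2 and 3 above the rest once more. All 4 of these ligands had a positive value in this comparison, and their reads may in part be shared where the genes are alike, so single values are uncertain.

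Cxcr2, the receptor of these ligands on neutrophils, did not move with them. It was at 9.90, 2.99, 3.78 and 1.83 CPM in PMMA bone and 9.74, 12.4, 10.01 and 9.14 CPM in BNED. The PMMA bone of rat 1 lay among the BNED libraries and the other 3 lay below all of them (log2 fold change -1.16, SE 0.51, adjusted p = 0.178). Without that library the value was -1.85 (adjusted p = 0.0153). Neutrophil markers took 0.0733% of counts in the PMMA bone of rat 1, 0.0294 to 0.0397% in that of rats 2 to 4 and 0.158 to 0.244% in BNED. Rat 1 was thus again the highest PMMA bone, but unlike for Cxcr2 it lay below all BNED libraries. The other receptor, Cxcr1, had at most 0.187 CPM in any bone library.

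**Figure D2:**
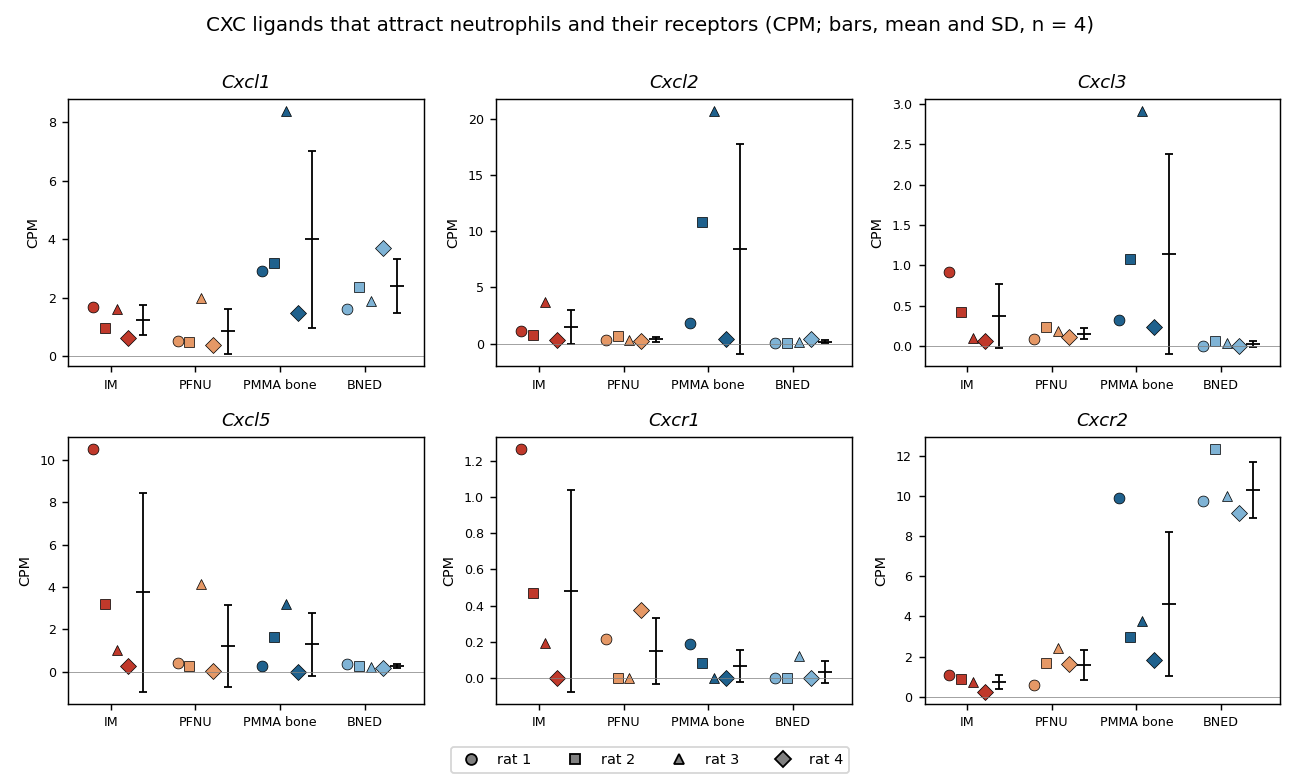
CPM (vertical axes) of Cxcl1, Cxcl2, Cxcl3, Cxcl5, Cxcr1 and Cxcr2 in the 4 groups (horizontal axes). Each point is 1 library, its shape gives the rat, and bars give the mean and SD of 4 libraries. Cxcl2 reached 10.8 and 20.7 CPM in the PMMA bone of rats 2 and 3, and Cxcr2 was at 9.14 to 12.4 CPM in BNED and at 0.257 to 2.43 CPM in the defect tissues.

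Several members had groups that did not overlap without being called. Counting called genes too, 8 were higher in all 4 PMMA bone libraries than in any BNED library and 5 were lower, that is 13 of 49 members beside 19.1% of all genes tested (12% higher, 7.05% lower). Cxcr7 was at 82.5, 70.0, 68.9 and 83.2 CPM in PMMA bone and 30.2, 31.7, 50.8 and 54.7 CPM in BNED (log2 fold change 0.86, SE 0.30, adjusted p = 0.0983). Cx3cl1, a membrane-bound ligand of vessel walls, was at 13.9 to 14.6 CPM against 8.16 to 11.2 CPM (log2 fold change 0.53, SE 0.38, adjusted p = 0.409). Cxcl16, the ligand of Cxcr6 that also acts as a scavenger receptor, was at 46.5 to 97.5 against 28.8 to 46.3 CPM (log2 fold change 0.91, SE 0.44, adjusted p = 0.216). Ccl7, Ccl20, Ccl27 and Ccr4 completed the higher ones with Cxcl3. The lower ones were Cxcr4, at 58.6 to 97.3 against 115 to 160 CPM (log2 fold change -0.80, SE 0.26, adjusted p = 0.0848), Ccl17, Cxcl17, Ccr6 and Ccr1l1. The edgeR fit of these 8 libraries alone called Cxcr7, Cx3cl1, Cxcl16, Cxcr4, Cxcl17, Ccr6 and Ccr1l1 (adjusted p = 0.0221 to 0.0460), beside 1767 of all genes. It did not call Ccl7, Ccl20, Ccl27, Ccr4 or Ccl17.

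The calls differed without the PMMA bone library of rat 1, whose erythroid share is given above. Then 10 members were called in place of 2, 4 higher and 6 lower, and 2578 genes in place of 631. The higher ones were Cxcl2 and Cxcl3 with Cxcl13, which draws B cells (log2 fold change 2.62, adjusted p = 0.0283), and Ccl20 at 4.47 (adjusted p = 0.0427). The lower ones were Cxcl12 at -1.10 (adjusted p = 0.0250), Cxcr4 at -0.96 (adjusted p = 0.0252), Cxcr2, the eosinophil receptor Ccr3 at -2.17 (adjusted p = 0.0174), Ccl6 at -1.88 (adjusted p = 0.0136) and Ccr1l1 at -2.56 (adjusted p = 0.0453). With all 16 libraries Cxcl13 was at 20.2, 50.1, 97.9 and 10.4 CPM in PMMA bone and 2.28, 6.29, 5.54 and 20.3 CPM in BNED (adjusted p = 0.0734). Its order over the spacer side, with rat 3 highest and rat 2 next, was that of Cxcl2.

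The lists of genes that work beside the chemokines held few calls in bone. Of 22 tested genes of the NF-kappaB pathway and its targets 2 rose, Il6 and Ier3, with a list median of 0.46 beside -0.01 over all genes. Il6, an inflammatory cytokine, was at 0.631, 3.24, 7.04 and 0.778 CPM in PMMA bone and 0.0875 to 0.283 CPM in BNED (log2 fold change 3.75, SE 0.94, adjusted p = 0.0364), again with rats 2 and 3 highest. Il1b was at 25.5, 36.2, 86.1 and 11.3 against 16.5, 19.9, 31.9 and 34.7 CPM (adjusted p = 0.500), and Tnf and Nfkbia had adjusted p = 0.406 and 0.184. Of 19 genes of white cell adhesion and transmigration 14 had an unadjusted p under 0.05 and 2 rose, the endothelial selectin Sele (log2 fold change 1.72, SE 0.43, adjusted p = 0.0373) and Jam3 (0.87, adjusted p = 0.0290). Endothelial markers were higher in the same comparison: 6 of 13 tested rose and all 13 had a positive value (median 0.82), and the list took 0.0945 to 0.187% of counts in PMMA bone and 0.0824 to 0.107% in BNED. Pecam1 and Cdh5 are in both lists, and the part of these cells in the adhesion values was not tested. The adhesion molecules Icam1 and Vcam1 were not called (0.76, adjusted p = 0.191, and -1.03, adjusted p = 0.128). Dpp4, a peptidase that trims chemokines, fell by 1.79 on the log2 scale (adjusted p = 0.0357). None of 21 genes of chemokine receptor signalling was called by edgeR, 7 had an unadjusted p under 0.05, and their median was -0.39.

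Membrane and empty-defect tissue were compared to ask the same of the tissue in the defect. No member was called by edgeR, beside 0.863% of all genes (0.366% higher, 0.498% lower), and 10 members had an unadjusted p under 0.05, beside 15.5%. DESeq2 called 3, all higher in the membrane, namely Cxcr7, Ccl21 and Ccl24, beside 572 of all genes. Limma-voom called 0 members and 0 genes of the whole table. The groups of 1 member did not overlap, beside 7.26% of all genes (3.96% higher, 3.31% lower). That was Ccr7, the receptor that guides dendritic and T cells into lymph nodes, at 1.88, 1.42, 1.64 and 0.987 CPM in IM and 7.87, 2.51, 2.76 and 2.26 CPM in PFNU (log2 difference -1.38, SE 0.46, adjusted p = 0.164).

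Cxcr7 had the lowest adjusted p of the members. It was at 45.8, 155, 128 and 118 CPM in the membranes of rats 1 to 4 and 53.7, 48.9, 37.2 and 50.8 CPM in PFNU (log2 difference 1.23, SE 0.30, adjusted p = 0.0670). The membrane of rat 1 lay inside the PFNU range and the other 3 lay at more than any PFNU library, and without the membrane of rat 1 the value was 1.51 (adjusted p = 0.0221). Cxcr7 was thus highest on average in the membrane, followed by PMMA bone (76.2 ± 7.76 CPM, SD, n = 4), PFNU (47.6 ± 7.25) and BNED (41.8 ± 12.7). Of the neighbours in that order, IM and PMMA bone did not differ by the test (adjusted p = 0.184, and 0.00934 without the membrane of rat 1), nor did PFNU and BNED (0.652), and PMMA bone with PFNU was not compared.

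Ccl24, an attractant of eosinophils, was at 35.9, 47.6, 13.8 and 45.4 CPM in the membrane and 22.3, 14.9, 11.3 and 10.5 CPM in PFNU. The membrane of rat 3 lay within the PFNU range and the others above it (log2 fold change 1.27, SE 0.36, adjusted p = 0.106, and 1.54 with adjusted p = 0.0322 without the membrane of rat 3). In bone the direction was opposite, at 4.17 to 8.92 CPM in PMMA bone against 8.60 to 14.7 CPM in BNED (log2 fold change -0.84, SE 0.36, adjusted p = 0.170). The difference of these differences, the interaction, was 2.11 (SE 0.51, adjusted p = 0.227). It was 2.14 by DESeq2 (adjusted p = 0.0131) and 2.35 without the PMMA bone of rat 1 (adjusted p = 0.0433). No gene in the table passed the interaction test in edgeR, 8.94% of all genes and 10 of the 49 members had an unadjusted p under 0.05, and DESeq2 called 136 genes.

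Ccl21, which draws Ccr7-bearing cells to lymph vessels and nodes, varied widely among the membranes. It was at 19.3, 82.0, 253 and 348 CPM in IM of rats 1 to 4, at 39.6, 26.5, 21.4 and 40.2 CPM in PFNU, at 5.96, 27.4, 12.6 and 17.8 CPM in PMMA bone and at 8.35, 15.3, 2.43 and 4.81 CPM in BNED. The membrane of rat 1 was below all PFNU libraries and those of rats 2 to 4 above them (log2 fold change 2.46, SE 0.73, adjusted p = 0.121). Skeletal muscle genes took 2.05, 3.80, 14.1 and 18.3% of counts in the same membranes, the same order. The 5 lymphatic endothelial markers, all in the table, took 0.0220, 0.0294, 0.0221 and 0.0129%, lowest in the membrane of rat 4, where Ccl21 was highest. In PFNU they took 0.00791 to 0.0113%, less than in any membrane, and 2 of the 5 were called higher in IM than in PFNU (list median 1.23). In PMMA bone they took 0.0182 to 0.0195%, more than in the membrane of rat 4, and in BNED 0.0102 to 0.0167%. The part of these markers in the Ccl21 values was not tested. In PFNU muscle genes took 5.64 to 13.7% with Ccl21 at 21.4 to 40.2 CPM.

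Some genes of monocytes and macrophages ran the other way over the membranes. Ccl2, the main monocyte attractant, was at 83.4, 90.1, 26.6 and 16.8 CPM in IM and 49.6, 17.4, 29.6 and 15.2 CPM in PFNU (log2 difference 0.96, SE 0.51, adjusted p = 0.387). Cxcl16 was at 205, 120, 75.7 and 39.9 CPM in IM. Cx3cr1, the receptor of Cx3cl1 on monocytes, was at 53.2, 11.9, 11.1 and 3.55 CPM in IM and 2.38 to 7.97 CPM in PFNU (log2 difference 1.75, SE 0.60, adjusted p = 0.170). The macrophage and monocyte markers (15 of 16 in the table) took 0.793, 0.782, 0.276 and 0.179% of counts in those membranes and 0.387, 0.206, 0.466 and 0.162% in PFNU. Membranes of rats 1 and 2 were thus high in all of these and those of rats 3 and 4 low, apart from Cx3cr1 in rat 2, which was close to rat 3. The spread between membranes was wider than the distance from PFNU for Ccl2 and Cxcl16. Ccl24, given above, did not share this order, nor did Ccl6, at 9.10, 69.65, 39.25 and 51.45 CPM in the membranes of rats 1 to 4.

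**Figure D3:**
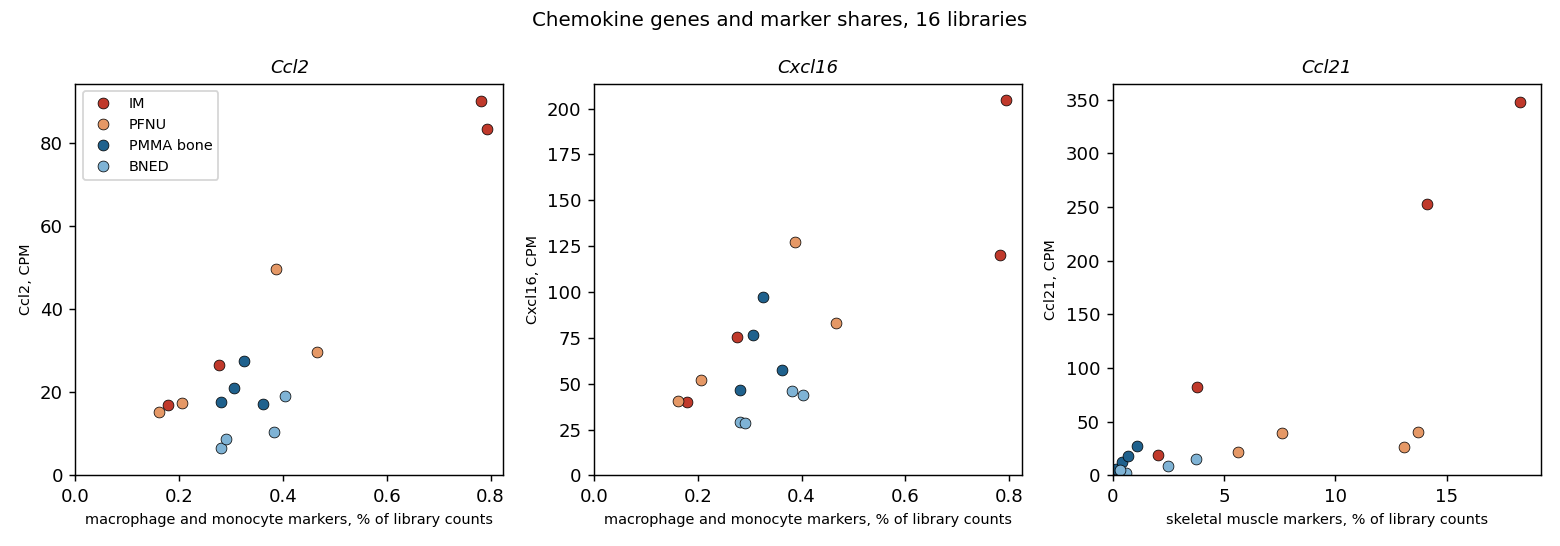
CPM of Ccl2 and Cxcl16 (against the summed share of macrophage and monocyte markers, % of library counts) and Ccl21 (against that of skeletal muscle genes) in 16 libraries, coloured by group. The membranes with 0.782 and 0.793% of macrophage markers had 90.1 and 83.4 CPM of Ccl2, and the membranes with 14.1 and 18.3% of muscle genes had 253 and 348 CPM of Ccl21.

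Defect tissue was then compared with the bone beside it within each limb. On the empty side 13 of 49 members rose and 6 fell in PFNU against BNED, beside 30.2% of all genes called (15% higher, 15.2% lower). On the spacer side 8 were higher and 5 lower in IM than in PMMA bone, beside 22.2% of all genes (11.3% higher, 11% lower). A total of 9 members were called in both limbs, all in the same direction, which is 69.2% of the 13 and 47.4% of the 19. Over all genes these shares were 66.2% and 48.8%. Higher in both were Ccl7, Ccl11, Ccl21, Cxcl9 and Ackr2, and lower in both were Cxcl12, Cxcl14, Cxcr2 and Cxcr4. On the empty side 12 members were higher and 8 lower without overlap (18.9% and 21% of all genes, 39.9% in all), and 26 had an unadjusted p under 0.05 (42.9%). On the spacer side 4 were higher and 6 lower without overlap (7.75% and 11.7%, 19.5% in all), and 21 had an unadjusted p under 0.05 (37.4%). The difference between limbs is the same interaction, which no member passed in edgeR.

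Cxcl12 and its signalling receptor Cxcr4 were both lower in defect tissue. Cxcl12 was at 342, 535, 656 and 762 CPM in IM, 709, 736, 1080 and 1070 CPM in PFNU, 3065, 1144, 1264 and 1846 CPM in PMMA bone and 2677, 2440, 3710 and 3312 CPM in BNED. All bone libraries were above all libraries of defect tissue. The log2 fold change was -1.67 (SE 0.34, adjusted p = 0.00454) on the spacer side and -1.76 (SE 0.34, adjusted p = 0.00183) on the empty side. Cxcr4 was at 52.2, 56.4, 23.8 and 26.6 CPM in IM, 39.0, 40.2, 52.5 and 43.2 CPM in PFNU, 97.3, 58.6, 67.6 and 71.6 CPM in PMMA bone and 160, 120, 120 and 115 CPM in BNED. It had no overlap in either limb (-0.89, SE 0.26, adjusted p = 0.0252, and -1.56, SE 0.27, adjusted p = 7.84e-04). On the spacer side the Cxcr4 call was lost without the PMMA bone of rat 1 or the membrane of rat 3 or 4, and in a fit of the 8 libraries alone (adjusted p = 0.112). Cxcr7, which also binds Cxcl12, did not share the pattern, with log2 fold changes of 0.55 and 0.19 (SE 0.29 each, adjusted p = 0.184 and 0.652).

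Cxcl14, a ligand of epithelia and bone stroma, gave the smallest p of the members on the spacer side. It was at 21.7, 33.4, 39.8 and 46.4 CPM in IM and 183, 105, 99.1 and 102 CPM in PMMA bone (log2 fold change -1.79, SE 0.25, adjusted p = 4.99e-04). In PFNU it was at 32.5, 43.7, 35.3 and 41.0 CPM and in BNED at 132, 90.6, 137 and 128 CPM (-1.67, SE 0.25, adjusted p = 3.69e-04). The 2 bones did not differ by the test (0.01, SE 0.24, adjusted p = 0.988), nor did the 2 defect tissues (-0.11, SE 0.24, adjusted p = 0.886). Cxcr2 fell by 2.63 (SE 0.54, adjusted p = 0.00485) and 2.69 (SE 0.54, adjusted p = 0.00211) on the log2 scale, to 0.257 to 1.09 CPM in IM and 0.606 to 2.43 CPM in PFNU. Neutrophil markers were lower in all defect libraries than in any bone library. Among these 4 lower members Cxcl12, Cxcl14 and Cxcr2 were called in both limbs whichever library was left out.

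Eosinophil and monocyte attractants that stand next to each other in the genome were higher in defect tissue. Ccl11 (eotaxin) was at 4.45, 14.6, 6.95 and 7.13 CPM in IM and 0.607, 1.27, 0.844 and 1.34 CPM in PMMA bone (log2 fold change 3.02, SE 0.51, adjusted p = 0.00169). In PFNU it was at 15.1, 14.4, 7.54 and 5.13 CPM and in BNED at 0.346, 0.469, 0.121 and 0.678 CPM (4.70, SE 0.55, adjusted p = 1.20e-04). Neither pair of groups overlapped. Ccl7 was at 65.8, 78.6, 21.9 and 14.4 CPM in IM against 4.86 to 7.68 CPM in PMMA bone (2.96, SE 0.65, adjusted p = 0.00654), and at 64.0, 17.2, 24.7 and 10.2 CPM in PFNU against 1.00 to 4.72 CPM in BNED (3.67, SE 0.67, adjusted p = 0.00126). Its neighbour Ccl12 rose on the empty side, from 0.467, 0.763, 1.78 and 1.16 CPM to 7.70, 1.99, 2.62 and 1.91 CPM (1.77, SE 0.54, adjusted p = 0.0239), though not without the PFNU of rat 1 (1.06, adjusted p = 0.117) or the BNED of rats 1 or 2 (adjusted p = 0.0713 and 0.0541). Ccl2, in the same run of genes, had 1.38 and 1.32 (adjusted p = 0.0633 and 0.0624, and 0.0228 and 0.0296 by DESeq2). Of the 4 tested genes of this run 3 rose on the empty side and 2 were higher on the spacer side, beside 15% and 11.3% of all genes. None of the 5 genes of another CC run (Ccl5, Ccl9, Ccl6, Ccl3 and Ccl4) was called by the edgeR model of all 16 libraries in either limb, with log2 fold changes of -0.85 to 0.82 and -0.43 to 1.22. Over all genes 30.2% were called on the empty side and 22.2% on the spacer side. Runs of 4 or 5 genes are too short to set against such shares. By limma-voom Ccl6 was called in both, higher in IM (1.74) and lower in PFNU (-0.86). In edgeR it was higher in IM without the PMMA bone of rat 1 (2.06, adjusted p = 0.0142). The edgeR fit of the 8 libraries alone called it lower in PFNU (-0.89, adjusted p = 9.16e-04). Its interaction was 2.07 (adjusted p = 0.462), 2.59 by limma-voom (adjusted p = 0.0285) and 2.91 without the PMMA bone of rat 1 (adjusted p = 0.0432).

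The eosinophil receptor Ccr3, which Ccl11 and Ccl24 bind, did not follow its ligands. It fell on the empty side, from 2.06, 3.56, 4.69 and 4.16 CPM in BNED to 0.671, 0.896, 1.27 and 0.817 CPM in PFNU (log2 difference -1.98, SE 0.56, adjusted p = 0.0166), with no overlap. On the spacer side its value was -0.73 (SE 0.56, adjusted p = 0.357), from 2.29, 0.289, 0.859 and 1.25 CPM in PMMA bone and 0.883, 1.02, 0.713 and 0.178 CPM in IM. Ccl24 was higher in IM than in PMMA bone, where it was at 8.92, 4.99, 4.17 and 6.34 CPM (2.55, SE 0.38, adjusted p = 7.15e-04) and at 10.5 to 22.3 CPM in PFNU against 8.60 to 14.7 CPM in BNED (0.44, SE 0.36, adjusted p = 0.369). Mast cell and eosinophil markers (10 of 10 in the table) took 0.118 to 0.125% of counts in BNED, 0.0358 to 0.0677% in PMMA bone, 0.0101 to 0.0233% in PFNU and 0.00292 to 0.00659% in IM.

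**Figure D4:**
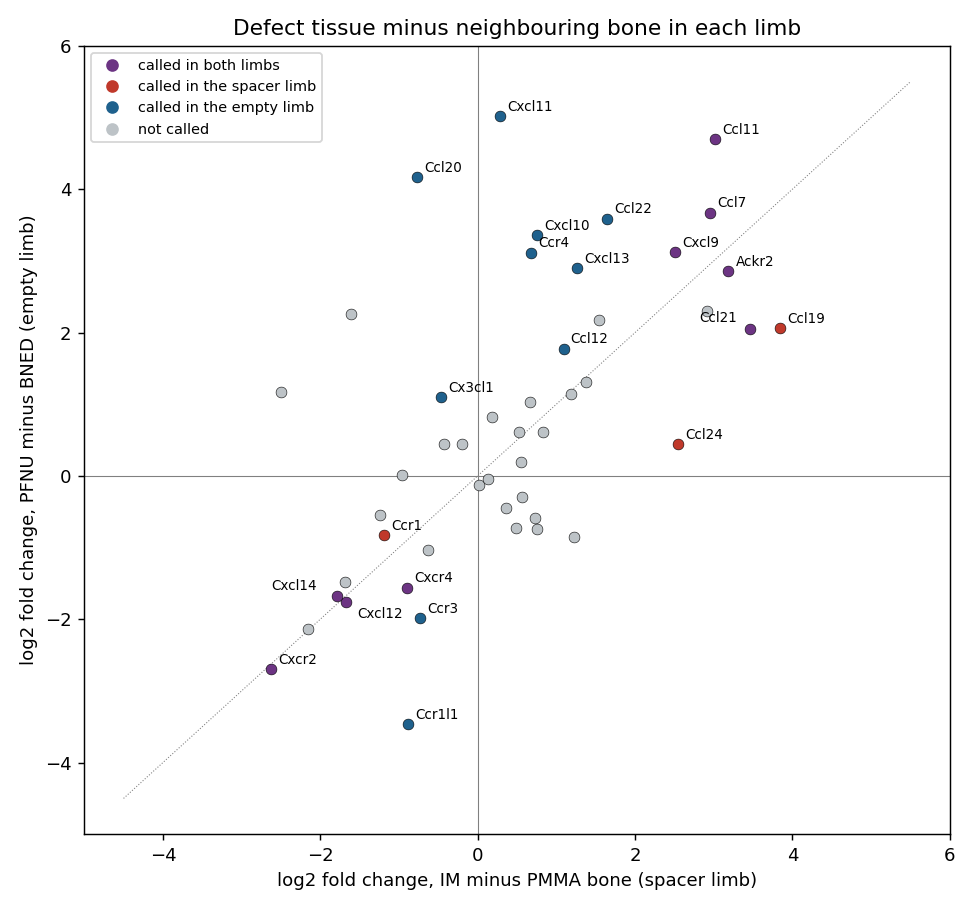
Log2 fold change of defect tissue minus neighbouring bone for 48 members, on the spacer side (horizontal axis, IM minus PMMA bone) and the empty side (vertical axis, PFNU minus BNED). The dotted line marks equal values and colours give the calls. The 9 members called in both limbs lie in the same direction in each, and Cxcl11 and Ccl20 lie highest above the line.

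The 3 interferon-induced ligands, neighbours in the genome, rose together on the empty side. Cxcl9 was at 188, 39.0, 23.7 and 25.9 CPM in PFNU and 4.15, 8.32, 8.01 and 11.2 CPM in BNED (log2 fold change 3.12, SE 0.78, adjusted p = 0.00800). Cxcl10 was at 173, 28.1, 12.6 and 18.4 CPM against 3.10, 6.78, 6.55 and 6.10 CPM (3.36, SE 0.85, adjusted p = 0.00874). Cxcl11 was at 81.0, 6.25, 4.44 and 8.71 CPM against 0.225, 0.481, 0.789 and 1.64 CPM (5.02, SE 1.20, adjusted p = 0.00665). No PFNU library overlapped BNED in any of the 3, and the PFNU of rat 1 was far above the rest. Without that library the log2 fold changes were 1.90, 1.81 and 3.06 (adjusted p = 0.0383, 0.0483 and 0.0309).

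On the spacer side only Cxcl9 of the 3 was called by edgeR. It was at 6.37, 39.8, 79.2 and 16.1 CPM in IM and 9.25, 6.23, 6.13 and 3.23 CPM in PMMA bone (log2 fold change 2.51, SE 0.76, adjusted p = 0.0283), with overlap, and rat 1 had less in the membrane than in bone. The call was lost without the membrane of rat 3 or the PMMA bone of rats 2, 3 or 4 (adjusted p up to 0.0940). Cxcl10 had 0.76 (adjusted p = 0.505) and Cxcl11 0.28 (adjusted p = 0.866). The interactions of the 3 were -0.61, -2.60 and -4.74 (adjusted p = 0.890, 0.512 and 0.376). Cxcr3, their receptor, was at 15.0, 4.73, 6.13 and 4.37 CPM in PFNU and 5.48, 6.89, 11.1 and 7.54 CPM in BNED (-0.04, SE 0.51, adjusted p = 0.959), and its PFNU value in rat 1 was the highest of all 16 libraries. T cell and NK cell markers (14 of 14) took 0.0132 to 0.0360% of counts in PFNU and 0.0320 to 0.0474% in BNED.

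**Figure D5:**
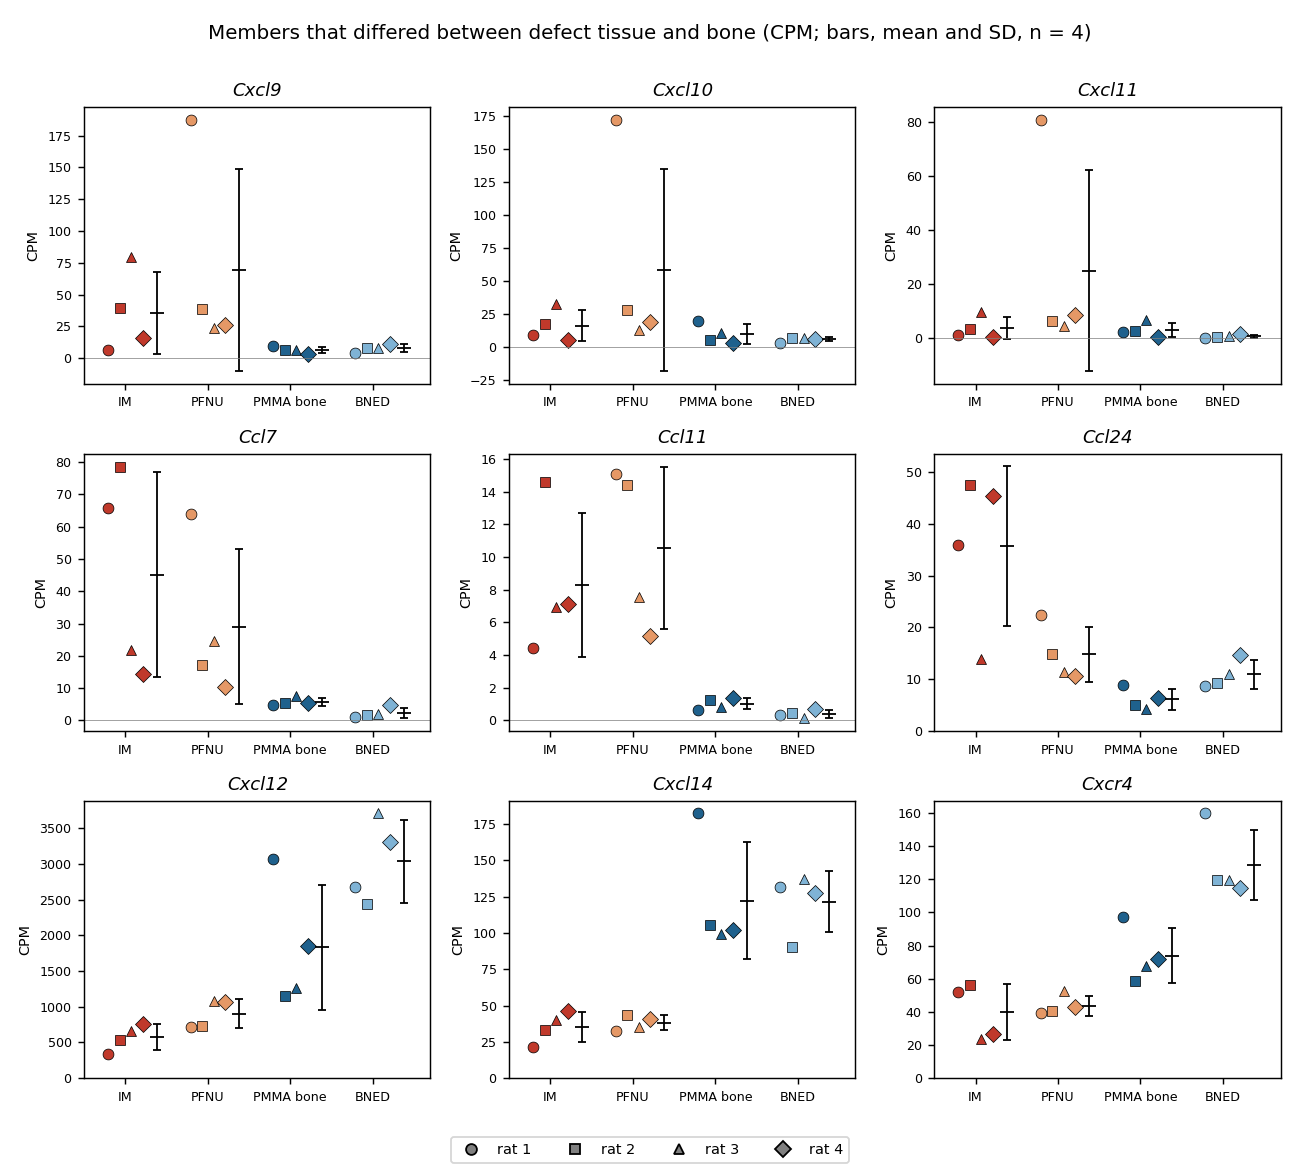
CPM (vertical axes) of 9 members in the 4 groups. Points are libraries, shapes give the rat, and bars give the mean and SD of 4 libraries. Cxcl9, Cxcl10 and Cxcl11 reached 188, 173 and 81.0 CPM in the PFNU of rat 1, and Cxcl12 was at 342 to 1080 CPM in the defect tissues and 1144 to 3710 CPM in bone.

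Ligands that guide B and T cells were among the remaining calls. Cxcl13, which gathers B cells through Cxcr5, was at 98.9, 33.2, 93.2 and 31.7 CPM in PFNU and 2.28 to 20.3 CPM in BNED (log2 fold change 2.90, SE 0.75, adjusted p = 0.0103). In IM it was at 134, 122, 132 and 39.5 CPM and in PMMA bone at 10.4 to 97.9 CPM (1.26, adjusted p = 0.211). Cxcr5 was at 3.92, 1.89, 2.35 and 1.45 CPM in PFNU and 1.14, 1.30, 1.98 and 1.84 CPM in BNED (0.62, adjusted p = 0.205), and the B cell and plasma cell markers (11 of 12) took 0.0912 to 0.135% of counts in BNED and 0.00852 to 0.0128% in PFNU. Ccl21 was higher in IM than in PMMA bone (3.46, SE 0.76, adjusted p = 0.00670) and in PFNU than in BNED (2.05, SE 0.72, adjusted p = 0.0438, and 0.0508 when rat is a replicate block). Ccl19, the other ligand of Ccr7, was higher in IM (3.85, SE 1.10, adjusted p = 0.0227, and 0.0767 in limma-voom), with 1, 62, 11 and 69 counts there and 4, 2, 0 and 4 counts in PMMA bone. The Ccl19 call was lost without the membrane of rat 4 or the PMMA bone of rats 2, 3 or 4 (adjusted p = 0.0652, 0.0520, 0.0591 and 0.0536). The Ccl21 call in PFNU was lost without the PFNU of rats 1, 2 or 4 or the BNED of rats 1, 3 or 4 (adjusted p up to 0.113), while that in IM held whichever library was left out. Ccr7 itself was not called in either (-0.96 and 0.01, adjusted p = 0.138 and 0.987). Ccl22, a ligand of Ccr4 on T helper cells, rose in PFNU (3.59, SE 0.89, adjusted p = 0.00789, and 2.00 without the PFNU of rat 1, adjusted p = 0.0430), where it was at 51.1, 4.50, 6.73 and 5.70 CPM against 0.259, 1.03, 1.56 and 2.82 CPM in BNED. Ccr4 rose with it (3.11, SE 1.00, adjusted p = 0.0289), on 10, 13, 20 and 3 counts in PFNU and 0, 2, 3 and 1 in BNED. The Ccr4 call was lost without the PFNU of rats 2 or 3 or the BNED of rats 1, 2 or 4 (adjusted p up to 0.0765).

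Some further receptors and scavengers were called. Ackr2, which degrades inflammatory CC chemokines, was at 0.998, 1.22, 7.90 and 3.28 CPM in IM and 0.170 to 0.713 CPM in PMMA bone (log2 fold change 3.19, SE 0.86, adjusted p = 0.0174). In PFNU it was at 0.498 to 1.56 CPM against 0 to 0.340 CPM in BNED (2.86, SE 0.88, adjusted p = 0.0244). Without the membrane of rat 3 the Ackr2 value on the spacer side was 2.32 (adjusted p = 0.0583), and that call was also lost without the PMMA bone of rat 4 (2.94, adjusted p = 0.0525). On the empty side it was lost without the PFNU of rat 1 or the BNED of rats 1, 3 or 4 (adjusted p up to 0.0691), and the value was 4.30 without the BNED of rat 2. Ccr1, a receptor of Ccl3, Ccl5 and Ccl9, was lower in IM (22.8, 38.3, 33.9 and 14.2 CPM) than in PMMA bone (66.6, 58.6, 94.2 and 29.8 CPM), at -1.19 (SE 0.39, adjusted p = 0.0390). The groups overlapped, and the call did not hold in the fit of the 8 libraries alone (adjusted p = 0.0918) or in limma-voom (adjusted p = 0.123). It was also lost without the membrane of rats 1 or 4 or the PMMA bone of rats 1, 2 or 3 (adjusted p up to 0.124). Ccr1l1 fell on the empty side (-3.46, SE 0.80, adjusted p = 0.00523), from 1.90, 1.28, 1.31 and 1.29 CPM in BNED to 0.260, 0.0779, 0.0415 and 0.140 CPM in PFNU. Cx3cl1 rose there (1.10, SE 0.39, adjusted p = 0.0432, and 0.0608 with the replicate block), at 32.6, 10.1, 26.3 and 14.6 CPM against 8.16, 9.69, 11.2 and 10.1 CPM. Ccl20, the ligand of Ccr6, rose there as well (4.17, SE 1.40, adjusted p = 0.0360, and 0.0959 with the block), from 0, 0, 2 and 5 counts to 65, 3, 43 and 7. The Cx3cl1 call was lost without the PFNU of rats 1 or 3 or any 1 BNED library (adjusted p up to 0.142). The Ccl20 call was lost without the PFNU of rats 1 or 3 or the BNED of rats 1, 2 or 3 (adjusted p up to 0.0956), with a value of 3.41 without the PFNU of rat 1 and 5.56 without the BNED of rat 4.

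Of 21 tested genes that carry chemokine receptor signals inside white blood cells, 10 fell and none rose in PFNU against BNED, beside 15.2% of all genes called lower (median -0.72 beside 0.04 over all genes), among them the GTPase Rac2 (log2 fold change -1.91, SE 0.28, adjusted p = 3.09e-04) and Was, a regulator of actin in blood cells (-1.52, SE 0.26, adjusted p = 7.97e-04). In the same comparison 14 of 15 neutrophil markers and 11 of 11 B cell and plasma cell markers fell, and their part in these values was not tested. On the spacer side 2 of the 21, Rac2 (-1.55, adjusted p = 0.00208) and Elmo1 (-0.65, adjusted p = 0.0283), were lower and none was higher, beside 11% of all genes called lower. The list median there was -0.14, beside 0.03 over all genes. Of 19 adhesion genes 7 rose and 4 fell in PFNU, beside 15% and 15.2% of all genes. Cdh5 and Pecam1, junction proteins of endothelial cells, rose by 1.68 (adjusted p = 2.31e-04) and 1.53 (adjusted p = 4.63e-04), and the selectin Selp by 1.52 (adjusted p = 0.00168). Vcam1 fell by 1.65 on the log2 scale (adjusted p = 0.00641). The endothelial markers (14 of 14) took 0.135 to 0.211% of counts in PFNU and 0.0824 to 0.107% in BNED, and 12 of 13 tested rose. The platelet chemokine gene Ppbp, outside the rule under its own symbol, was lower in defect tissue in both limbs (-5.94, SE 1.09, adjusted p = 0.00267, and -4.08, SE 0.88, adjusted p = 0.00343). Pf4, its neighbour, was not called (0.57, adjusted p = 0.316, and -0.95, adjusted p = 0.0791).

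Members that the edgeR model of all 16 libraries called in no comparison were Ccl2, Ccl3, Ccl4, Ccl5, Ccl6, Ccl9, Ccl17, Ccl27, Cxcl1, Cxcl5, Cxcl16, Cxcl17, Xcl1, Ccr6, Ccr7, Ccr9, Ccr10, Cx3cr1, Cxcr1, Cxcr3, Cxcr5, Cxcr6, Cxcr7 and Xcr1. Of these DESeq2 called Ccl2, Ccl27, Cxcl1, Ccr10 and Cxcr7 in at least 1 comparison. Limma-voom called Ccl2, Ccl5, Ccl6, Ccl17, Ccl27, Cxcl16, Cxcl17, Xcl1, Ccr6, Ccr9, Ccr10, Cxcr7 and Xcr1 in at least 1. Ccl5, which attracts T cells and monocytes, was at 5.01, 33.4, 22.4 and 5.51 CPM in IM, 26.4, 13.6, 18.9 and 7.77 in PFNU, 20.6, 12.0, 9.79 and 5.17 in PMMA bone and 14.3, 21.2, 50.2 and 24.2 in BNED, with all 4 groups overlapping. Xcr1, a receptor of cross-presenting dendritic cells, lay at 1.09 to 8.35 CPM over the 16 libraries and its ligand Xcl1 at 0.238 to 2.34 CPM. Cxcr6, the receptor of Cxcl16, was at 1.82, 2.79, 3.18 and 0.967 CPM in IM, 4.41, 1.44, 5.71 and 1.35 in PFNU, 1.42, 1.36, 2.47 and 0.807 in PMMA bone and 1.00, 1.56, 3.60 and 2.32 in BNED. It had log2 fold changes of -0.56 to 0.61 over the 4 comparisons of groups. Ccr10 was lower in all 4 defect libraries than in the bone of the same limb on both sides, without passing the test in edgeR (-2.16, SE 0.84, adjusted p = 0.0761, and -2.14, SE 0.82, adjusted p = 0.0597), while DESeq2 called both (adjusted p = 0.0274 and 0.0195).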

How the data were processed

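The data are RNA-seq counts of 16 libraries from 4 rats, with group and rat taken from each sample's labels. Per the labels' protocols, tissue went into RNAlater and poly-A RNA isolated with Trizol was made into stranded, paired-end libraries. The submitters' processing notes list FastQC 0.11.3, TopHat2 2.0.13, Bowtie2 2.2.1, DESeq2 and build rn5. What each tool did, what counted the reads and whether strand was used is not given in the sources used here. Whole-number counts per gene symbol, not normalized, are what the authors deposited.

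In edgeR 4.0.16 (R 4.3.3), quasi-likelihood F-tests were made in 1 model of group means over all 16 libraries, after filterByExpr and TMM scaling, with Benjamini-Hochberg adjustment over 12857 genes. Adjusted p-values are from this test unless another tool (DESeq2 1.42.0 or limma-voom, limma 3.58.1) is named. CPM are counts scaled to TMM-adjusted library size, and SE is the log2 fold change divided by the square root of F. The scripts were tested on simulated data. Levels were not divided by transcript length, so a gene is compared only with itself. Promoter windows were matched by symbol or synonym in RefSeq tables (GRCr8). Genes were called neighbours where at most 2 other protein-coding genes lay between them.

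The members, lists and rules were chosen with earlier results of these data known. The rule for named genes gave called members and a fixed panel of well-known members by library and others by range, with up to 5 called genes of smallest p and a few fixed symbols from each pathway list. Same-numbered libraries come from the same rat, and the correlation of their deviations from the group means was -0.285 to 0.496 over 16 pairs. No libraries of a group agreed within sampling noise (lowest chi-square per degree of freedom 75.6). The spread between the 4 rats of a group, which goes beyond counting error, limits what can be seen. The labels name no batch. Alternatives were RLE size factors, no filter, a stricter filter (1 CPM in 4 libraries), DESeq2, limma-voom with quality weights, the 8 libraries compared, a replicate block and leaving out each library. Values of 1 tested receptor are not reported here or drawn, though it is in the counts of members. Reads of near-identical or overlapping genes may have been split or shared.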

Additional observations from a re-analysis of the deposited data

Results flagged for a closer look

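In each group of 4 libraries, the highest or lowest value of a member was set against the other 3 by Dixon's criterion. By chance, about 1 in 20 groups of independent, normally distributed values would be marked. CPM of low counts are not so distributed, and 1 library can be marked for several genes, so this share cannot be compared with the marks here. In all, 20 of 196 groups were marked. Of these, 9 had the PFNU of rat 1 far above the other PFNU libraries: Cxcl9 at 188 CPM (next 39.0), Cxcl10 at 173 (28.1), Cxcl11 at 81.0 (8.71), Ccl22 at 51.1 (6.73), Cxcr3 at 15.0 (6.13), Ccr7 at 7.87 (2.76), Ccl12 at 7.70 (2.62), Ccl17 at 4.07 (0.864) and Xcl1 at 2.34 (0.623).

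Elsewhere in PFNU, rat 3 was far above the others for Cxcl5 at 4.13 CPM (next 0.389) and Cxcl1 at 2.01 (0.519), and rat 4 far below for Ccl27 at 0.233 (0.561). In the membrane, rat 1 stood high for Cx3cr1 at 53.2 CPM (11.9) and rat 4 low for Cxcl13 at 39.5 (122). In PMMA bone, rat 1 stood high for Cxcl14 at 183 CPM (105) and rat 3 for Ccr7 at 5.26 (2.29). In BNED, rat 1 stood high for Cxcr4 at 160 CPM (120) and Ccr1l1 at 1.90 (1.31), rat 4 for Cxcl2 at 0.415 (0.121) and rat 3 for Cxcr1 at 0.121, where the others were at 0.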

How the results depend on the processing

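Counts of called members depended on the tool most in PMMA bone against BNED, where 2 were called by edgeR, 1 with the stricter filter (Cxcl3 was not tested there), 7 by DESeq2, 25 by limma-voom, 9 in the fit of the 8 libraries alone and 0 to 10 when 1 library was left out. Over all genes the same comparison gave 631 calls by edgeR, 580 with the stricter filter, 1546 by DESeq2, 6244 by limma-voom, 1767 in the fit of the 8 libraries and 0 to 2578 when 1 library was left out, with 0 in each fit that called no member. In IM against PFNU, where edgeR called 0, DESeq2 called 3 and leaving out 1 library gave 0 to 1. Over all genes these fits gave 111, 572 and 11 to 244 calls, and limma-voom and the fit of the 8 libraries gave 0. For the interaction, at 0 in edgeR, DESeq2 and limma-voom called 1 each and leaving out 1 library gave 0 to 2. Over all genes DESeq2 and limma-voom called 136 and 218, and leaving out 1 library gave 0 to 199. In IM against PMMA bone 13 became 8 in the fit of the 8 libraries and 9 to 15 without 1 library, and 18 by DESeq2. The calls over all genes were 2860, 908, 1818 to 4047 and 3721 in the same order. In PFNU against BNED 19 became 13 to 18 without 1 library, 22 by DESeq2, 25 by limma-voom and 22 in the fit of the 8 libraries. There the calls over all genes were 3884, 2637 to 3981, 4751, 6720 and 5443 in the same order. With a replicate block for rat the 5 counts of called members were 0, 2, 0, 13 and 18, with 16 of the 19 shared. The block ended the calls of Ccl20, Ccl21 and Cx3cl1 in PFNU against BNED and of no other member, while Ccr1 and Cxcl1 gained one there. Of 503 refits of the 34 called values 425 kept the call, 78 lost it and none changed sign, and of 3369 refits of values that were not called 159 changed sign. In fits without 1 library, calls that held but moved by over 1.5 times, beyond those given above, were Cxcl2 (6.5 without the BNED of rat 4), Cxcl3 (6.20 without that of rat 2), Ccl21 in IM (2.87 without the membrane of rat 4) and Cxcr2 in IM (-1.94 without the PMMA bone of rat 1). In PFNU against BNED they were Ccl7 (2.93 without the PFNU of rat 1, 4.30 without the BNED of rat 4), Cxcl11 (5.66) and Cxcl13 (3.77) without the BNED of rat 4, and Ccr4 (3.76 without that of rat 3). Cxcl9 in IM, whose call was lost, was at 1.74 without the membrane of rat 3. Other alternatives also moved calls that held, among them Cxcl2 in PMMA bone (4.77) and Ccl22 in PFNU (2.71) with the replicate block. Limma-voom had Ccl7 in IM at 2.11 and Ackr2 in PFNU at 4.31. The causes were not tested. RLE size factors shifted the median of all genes by -0.025 to 0.013 on the log2 scale. The 4 rats per group and low counts of Ccl19, Ccl20, Ccr4 and Cxcl3 limit the precision.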
